A study of Homo sapiens with 5 samples.

Results

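The SLC25 family comprises the mitochondrial carriers, nuclear-encoded proteins that exchange metabolites, nucleotides, phosphate and cofactors across the inner mitochondrial membrane. They were followed here in a ribosome profiling experiment, in which the stretches of mRNA protected inside ribosomes (footprints) are sequenced and counted per gene. Here they came from the 80S monosome fraction after MNase digestion. Members were all rows of the deposited gene table whose symbol begins with SLC25A, and 47 of 17297 rows met this rule. The MUT group held 3 libraries of HCT116 cells homozygous for the CRISPR/Cas9-edited allele labelled eIF6-N106S. The WT group held 2 libraries of HCT116 cells with the label Wt. HCT116 is a human colorectal carcinoma line, and eIF6 binds the large ribosomal subunit, takes part in its maturation and keeps it from joining the small subunit. The protocol speaks of mutant clones in general and the labels do not say how many clones or cultures stand behind the libraries of a group, so p-values here rest on library-to-library spread alone, and that spread may be technical. For the same reason the edit and any other difference between the edited clones and their WT counterpart cannot be told apart.

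Mitochondrial carriers are made on cytosolic ribosomes, mostly without a cleaved targeting signal, and reach the inner membrane through the TOM complex, the small TIM chaperones of the intermembrane space and the TIM22 translocase. Their best known members are the ADP/ATP carriers, which bring ADP in and send ATP out, and the phosphate carrier, which supplies the other substrate of ATP synthase. Others link mitochondria to the cytosol through shuttles of malate, aspartate and citrate, or import the cofactors that matrix enzymes need. Carriers of amino acids, nucleotides, glutathione and iron serve the growth of dividing cells.

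Library totals ran from 3076137 to 3821176 counts in MUT and from 2095217 to 3128144 in WT, the smallest being WT replicate 1. The label of an epithelial line was borne out by its markers, since the summed level of EPCAM, KRT8, KRT18, KRT19, CDH1 and CLDN7 lay between 1131 and 1441 CPM (counts scaled to a common library total, with TMM factors for composition) in MUT and between 1079 and 1179 CPM in WT. KRT8, KRT18 and KRT19 made up most of that sum, and its members did not move together. Raw counts of KRT8 were 1141, 1660 and 1219 in MUT, against 598 and 842 in WT. Those of CDH1 were 28, 46 and 49 in MUT, against 43 and 64 in WT. EPCAM had 165, 247 and 190 in MUT, against 146 and 254 in WT. CLDN7 had 107, 105 and 96 in MUT, against 87 and 127 in WT. Summed markers of fibroblasts, mostly COL1A1, reached at most 9.22 CPM in MUT and 8.99 CPM in WT. The marker sums of leukocytes were 5.41 to 8.21 CPM in MUT and 1.63 to 4.49 CPM in WT, and those of endothelial cells 1.32 to 1.91 CPM in MUT and 1.63 to 5.49 CPM in WT. Most of the leukocyte sum was CD68, with raw counts of 17, 19 and 32 in MUT, against 9 and 5 in WT. The other leukocyte markers present, CD3E and CD14, had at most 4 counts in a library. The part of these traces in the results was not tested. RNA-seq libraries were not analysed here, so more ribosomes per mRNA and more mRNA cannot be told apart. As each library is a bulk extract, fewer cells that use a gene and fewer footprints per cell cannot be told apart either.

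The family's share of raw footprint counts was alike in both groups, while single carriers moved in both directions. SLC25 genes held 0.353%, 0.337% and 0.363% of all counts in MUT replicates 1, 2 and 3, against 0.351% and 0.354% in WT replicates 1 and 2. The exact 95% binomial intervals, which cover counting error only, were 0.331% to 0.343% for the lowest library (MUT replicate 2) and 0.357% to 0.369% for the highest (MUT replicate 3). On this raw scale the WT values lay inside the range of the MUT values. These shares leave out the TMM factors that CPM and fold changes use. The factors were 1.03, 1.01 and 1.02 in MUT and 0.959 and 0.98 in WT. Dividing by them lowers the MUT shares and raises the WT shares, so the comparison depends on scaling. Of the 47 genes, 38 passed the filter on low counts and were tested with edgeR's quasi-likelihood test. At a Benjamini-Hochberg adjusted p under 0.05 over all 11991 genes tested, 3 carriers were higher and 5 lower in MUT, and 30 did not pass. Those 8 calls are 21.1% of the tested carriers, and the share among all tested genes was 22.9%, with 10.0% higher and 12.9% lower. At an unadjusted p under 0.05, 5 carriers were higher and 5 lower (26.3%), against 35.8% of all tested genes. The share of called carriers was thus near that background. Its median log2 fold change (MUT over WT) was 0.00069, and the median over all tested genes was 0.0024. The libraries of the groups did not overlap for 16 of the 38 carriers, against 50.7% of all tested genes.

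**Figure D1:**
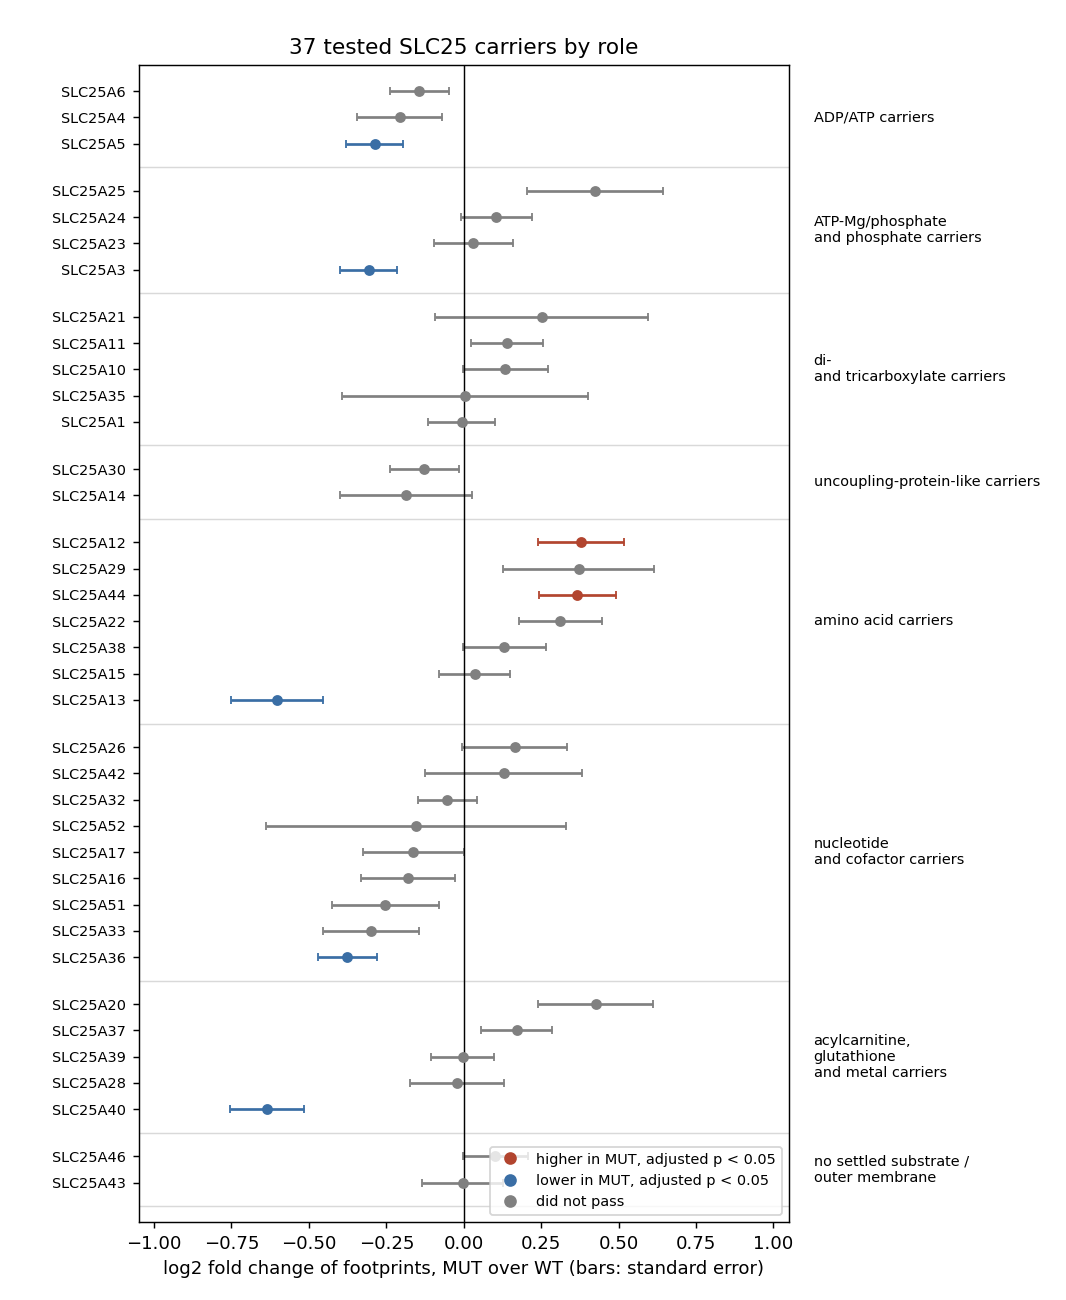
Log2 fold change of footprints (MUT over WT, horizontal axis) of 37 tested carriers, grouped by transported substrate, with bars for the standard error. Red points were higher in MUT and blue points lower at an adjusted p under 0.05, and grey points did not pass. The 5 lower carriers lie between -0.63 (SLC25A40) and -0.29 (SLC25A5), and the higher ones drawn are SLC25A44 (0.37) and SLC25A12 (0.38).

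The sequences around the annotated transcription start are shown for the carriers on which the results turn. Genes whose start is a C within a run of at least 4 pyrimidines, the C included, were counted separately in this comparison. This rule is looser than the TOP motif, in which at least 4 pyrimidines follow the C. Each line gives 10 bases before and 20 bases from the start, 5′ to 3′ on the gene's strand (RefSeq, GRCh38.p14), with the unbroken pyrimidine run at the start in capitals. The carriers that were lower or higher in MUT and had an entry come first.
SLC25A40 (chr7:87876341-87876370, minus strand, lower): tcacgccgccgtccttctcgcgcctcgctc
SLC25A13 (chr7:96322079-96322108, minus strand, lower): gggcgtggggaggcaggccaggaacgcacg
SLC25A36 (chr3:140941826-140941855, plus strand, lower): cgtcgctttcagcctctggtgaagggcggc
SLC25A3 (chr12:98593676-98593705, plus strand, lower): gacgtccggcCTCTgtgagccgcaaccttt
SLC25A5 (chrX:119468434-119468463, plus strand, lower): cttcgctccgCCCCgcagcgccggagtcaa
SLC25A44 (chr1:156194094-156194123, plus strand, higher): ggttccggcagtaccggtagcccagtcgag
SLC25A12 (chr2:171894225-171894254, minus strand, higher): ctgctcgctcactcgctcgtccccggcttc
The remaining carriers with a C and a run of at least 4 pyrimidines at the start, the C included, follow. None of them passed the test.
SLC25A6 (chrX:1392094-1392123, minus strand): gctgctccgtCCTTTCggtccaggcggcgg
SLC25A22 (chr11:798262-798291, minus strand): gcggacgcgcCTCCCCgcctaggtgctggc
SLC25A21 (chr14:37172587-37172616, minus strand): atccgcgggtCTTCTTTCCagagacatttt

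A start with C and a run of at least 4 pyrimidines, the C included, was found in 5 of the 32 tested carriers with a RefSeq start (15.6%). Among all 9868 tested genes with a RefSeq start the share was 6.85%. Over all genes of that table, tested or not, it was found in 5 of 39 carriers (12.8%) and in 5.45% of 27305 genes. Among the tested carriers with it, SLC25A3 and SLC25A5 were lower in MUT, and SLC25A6, SLC25A22 and SLC25A21 did not pass, with log2 fold changes of -0.14, 0.31 and 0.25. The runs of SLC25A3 and SLC25A5 were 4 bases in all, too short for the TOP motif. Among all 676 tested genes with such a start, 146 (21.6%) were lower and 42 (6.21%) higher in MUT, against 12.7% lower and 9.98% higher among the 9868 tested genes with an entry. An annotated start need not be the one used in HCT116, and the match is a description of letters.

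The ADP/ATP carriers all had lower mean levels in MUT, and 1 of the 3 tested passed. SLC25A5 (gene ID 292, chromosome X, 119468444 to 119471396), the ADP/ATP carrier typical of dividing cells, had 307, 321 and 295 CPM in MUT, against 365 and 385 CPM in WT. All MUT libraries lay below both WT libraries. Its level was 308 ± 12.99 CPM in MUT (SD, n = 3) and 375 ± 14.2 CPM in WT (SD, n = 2), a log2 fold change of -0.29 (SE 0.0918) with an edgeR adjusted p of 0.0258. SLC25A6, the broadly expressed carrier of this type, had 318, 322 and 332 CPM in MUT, against 391 and 328 CPM in WT, so the groups overlapped through WT replicate 2. With a log2 fold change of -0.14 (SE 0.0964), it did not pass (edgeR adjusted p 0.299). SLC25A4, best known from heart and muscle, had 43.6, 42.7 and 43.4 CPM in MUT, against 50.4 and 49.4 CPM in WT. Its groups did not overlap, yet the test was not passed (log2 fold change -0.21, SE 0.137, edgeR adjusted p 0.29). SLC25A31 was not analysed here.

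Footprints were divided among these carriers in much the same way in both groups. SLC25A6 took 47.6%, 46.9% and 49.5% of the footprints on SLC25A4, SLC25A5 and SLC25A6 in MUT, against 48.5% and 43.0% in WT. The WT libraries differed more from each other than the group means did, which were 2.29 percentage points apart. Between these carriers single values are uncertain: RefSeq lists 9 pseudogenes of SLC25A5 and 6 of SLC25A6, SLC25A6 lies in a region shared by the X and Y chromosomes, and the treatment of reads with several matches is not stated in the labels. The call on SLC25A5 ended without WT replicate 2 (edgeR adjusted p 0.15), MUT replicate 1 (0.102) or MUT replicate 3 (0.0792), with library size only (0.0822) and under upper-quartile scaling (0.0598).

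Among the phosphate and ATP-Mg/phosphate carriers, the phosphate carrier fell and its calcium-regulated relatives did not pass. SLC25A3 (gene ID 5250, chromosome 12, 98593686 to 98606367), which imports phosphate for ATP synthesis and also carries copper, had 418, 395 and 378 CPM in MUT, against 482 and 498 CPM in WT. Again every MUT library was below every WT library. Means were 397 ± 20.05 CPM in MUT (SD, n = 3) and 490 ± 11.2 CPM in WT (SD, n = 2), and the log2 fold change was -0.31 (SE 0.0931, edgeR adjusted p 0.0192). SLC25A23, an ATP-Mg/phosphate carrier with calcium-binding domains, had 200, 173 and 229 CPM in MUT, against 236 and 162 CPM in WT. Here the WT libraries enclosed the MUT libraries, and the gene did not pass (log2 fold change 0.03, SE 0.127, edgeR adjusted p 0.886). SLC25A24 and SLC25A25, of the same type, had log2 fold changes of 0.10 and 0.42 and did not pass. The gene of SLC25A23 overlaps that of SLC25A41 in RefSeq, and RefSeq lists 3 pseudogenes of SLC25A3. SLC25A3 lost its call without WT replicate 2 (edgeR adjusted p 0.0959), MUT replicate 1 (0.0535), MUT replicate 2 (0.0548) or MUT replicate 3 (0.071), with library size only (0.0606) and with a trend of gene span and density removed (0.294, log2 fold change -0.15).

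SLC25A3, SLC25A5 and SLC25A6 together held 30.2%, 31.2% and 28.3% of the family's footprints in MUT, against 33.7% and 33.5% in WT. The difference of -3.72 percentage points is a description of the carriers with the most counts. It uses the same counts as the calls on SLC25A3 and SLC25A5 and adds no support to them.

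Carriers of amino acids contained the opposite changes of a closely related pair. SLC25A12 (aralar) and SLC25A13 (citrin) are calcium-regulated aspartate/glutamate carriers of the malate-aspartate shuttle, which moves reducing equivalents of cytosolic NADH into mitochondria. Citrin is the form of liver, and aralar that of brain and muscle. SLC25A13 (gene ID 10165, chromosome 7, 96120220 to 96322098) had 29.3, 32.7 and 33.1 CPM in MUT, against 45.9 and 50.02 CPM in WT. The groups were far apart relative to their spread, with 31.7 ± 2.097 CPM in MUT (SD, n = 3) and 48.0 ± 2.88 CPM in WT (SD, n = 2). It was 1.52-fold lower, a log2 fold change of -0.60 (SE 0.149, edgeR adjusted p 0.00511). SLC25A12 (gene ID 8604, chromosome 2, 171783405 to 171894244) had 60.4, 58.7 and 72.9 CPM in MUT, against 45.9 and 52.0 CPM in WT. Each MUT library was above each WT library, with the widest gap in MUT replicate 3. It was 1.3-fold higher, a log2 fold change of 0.38 (SE 0.138) with an edgeR adjusted p of 0.0495, just inside the threshold.

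Of the footprints on this pair, SLC25A12 held 67.4%, 64.3% and 68.8% in MUT replicates 1, 2 and 3, against 50% and 51.0% in WT replicates 1 and 2. The exact 95% binomial intervals ran from 59.0% to 69.3% in the lowest MUT library and from 45.3% to 56.6% in the highest WT library, so they did not meet. They cover counting error only. The shares use the same counts as the calls on both genes and add no support to them. The group means were 66.8% ± 2.30 in MUT (SD, n = 3) and 50.5% ± 0.68 in WT (SD, n = 2). The pair was singled out after its values were seen. The call on SLC25A13 ended without WT replicate 2 (edgeR adjusted p 0.0989). That on SLC25A12 ended without WT replicate 1 (0.255), WT replicate 2 (0.117), MUT replicate 1 (0.0821) or MUT replicate 3 (0.175), in DESeq2 (0.158), limma-voom (0.0697), with all libraries thinned to the smallest (0.063) and with replicate numbers as a block (0.127). The positive direction of SLC25A12 held in all 16 alternative fits, with log2 fold changes from 0.27 to 0.49, and the negative one of SLC25A13 from -0.66 to -0.53.

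**Figure D2:**
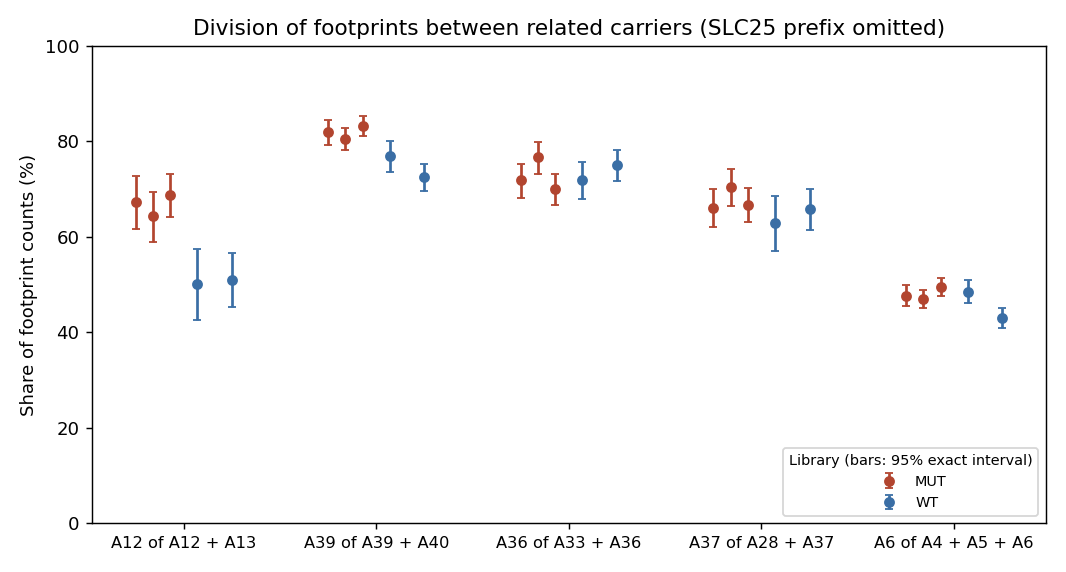
Share of footprint counts (vertical axis, %) that 1 carrier takes of the counts on itself and its close relatives, with 1 point per library, MUT in red and WT in blue, and bars for the exact 95% binomial interval. SLC25A12 lies between 64.3% and 68.8% in MUT and at 50% and 51.0% in WT, and SLC25A39 at 80.6% or more in MUT and 77.0% or less in WT, while the groups overlap for SLC25A36, SLC25A37 and SLC25A6. The shares use the same counts as the calls on single carriers and add no support to them.

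SLC25A44, reported to carry branched-chain amino acids into mitochondria, was the other amino acid carrier that rose. On this gene (gene ID 9673, chromosome 1, 156194104 to 156212796) 69.7, 72.7 and 77.5 CPM were measured in MUT, against 59.9 and 54.6 CPM in WT. The groups were separate, at 73.3 ± 3.95 CPM in MUT (SD, n = 3) and 57.3 ± 3.77 CPM in WT (SD, n = 2). Its log2 fold change was 0.37 (SE 0.124, edgeR adjusted p 0.0353). This call ended without any single library (edgeR adjusted p from 0.0546 to 0.255), in DESeq2 (0.133), with thinned libraries (0.229) and with the trend of gene span and density removed (0.396, log2 fold change 0.16). The glutamate carrier SLC25A22, at 62.0, 66.9 and 61.3 CPM in MUT, against 44.4 and 56.2 CPM in WT, had a log2 fold change of 0.31 and did not pass (edgeR adjusted p 0.0952). The ornithine carrier SLC25A15, the basic amino acid carrier SLC25A29 and the glycine carrier SLC25A38, which serves heme synthesis, had log2 fold changes of 0.03, 0.37 and 0.13 and did not pass either. In all, 2 of the 7 tested amino acid carriers were higher and 1 was lower, where 10.0% and 12.9% of all tested genes were. Neither higher one passed in DESeq2 or with thinned libraries.

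Among the nucleotide and cofactor carriers, SLC25A36 fell. SLC25A36 (gene ID 55186, chromosome 3, 140941836 to 140980995), a carrier of pyrimidine nucleotides, had 141, 134 and 144 CPM in MUT, against 189 and 174 CPM in WT. It fell to 139.5 ± 4.97 CPM in MUT (SD, n = 3), against 182 ± 10.8 CPM in WT (SD, n = 2), a log2 fold change of -0.38 (SE 0.0951, edgeR adjusted p 0.00606).

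The other pyrimidine nucleotide carrier, SLC25A33, had 55.3, 40.8 and 61.8 CPM in MUT, against 73.9 and 57.5 CPM in WT. Its groups overlapped, and it did not pass (log2 fold change -0.30, SE 0.156, edgeR adjusted p 0.169). SLC25A36 took 71.8%, 76.7% and 69.9% of the footprints on this pair in MUT, against 71.9% and 75.1% in WT, with no separation of the groups. SLC25A32, known for mitochondrial folate and flavin supply, was among the steadiest members, at 160, 168 and 166 CPM in MUT, against 162 and 178 CPM in WT, with a log2 fold change of -0.05 (SE 0.0949). The coenzyme A carriers SLC25A16 and SLC25A42, the peroxisomal SLC25A17, the S-adenosylmethionine carrier SLC25A26, and the NAD carrier SLC25A51 with its close copy SLC25A52 ranged from -0.25 (SLC25A51) to 0.16 (SLC25A26) in log2 fold change and did not pass. SLC25A36 lost its call without WT replicate 1 (edgeR adjusted p 0.0558) and with the trend of gene span and density removed (0.107, log2 fold change -0.22).

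Of the carriers of glutathione, acylcarnitine and metals, SLC25A40 fell and the other 4 tested did not pass. SLC25A40 (gene ID 55972, chromosome 7, 87833568 to 87876360) and its paralog SLC25A39 bring glutathione, the main thiol antioxidant, into the matrix. SLC25A40 had 51.5, 55.6 and 55.4 CPM in MUT, against 78.9 and 88.6 CPM in WT. The highest MUT library stood well below the lowest WT library, and means were 54.2 ± 2.29 CPM in MUT (SD, n = 3) and 83.8 ± 6.86 CPM in WT (SD, n = 2). With a log2 fold change of -0.63 (SE 0.12, 1.55-fold lower, edgeR adjusted p 0.000615), it had the lowest p of the family. It was also the carrier whose call held in all 16 alternative fits, with log2 fold changes from -0.71 to -0.53 and adjusted p up to 0.0395.

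SLC25A39 had 234, 231 and 277 CPM in MUT, against 264 and 233 CPM in WT. The groups overlapped, with a log2 fold change of -0.00264 (SE 0.101, edgeR adjusted p 0.99). The share of SLC25A39 in the footprints of both genes was 81.9%, 80.6% and 83.3% in MUT, against 77.0% and 72.5% in WT. The mean difference was 7.22 percentage points, and no MUT library reached down to a WT library. This share uses the same counts as the call on SLC25A40 and adds no support to it. The pair was named after its values were seen. SLC25A20, the carnitine/acylcarnitine carrier that brings fatty acids in for oxidation, had 28.6, 26.9 and 32.8 CPM in MUT, against 22.0 and 21.9 CPM in WT. Its groups were separate, but the gene did not pass (log2 fold change 0.43, SE 0.185, edgeR adjusted p 0.0977). The mitoferrins SLC25A37 and SLC25A28, which import iron, had log2 fold changes of 0.17 and -0.02 and did not pass.

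**Figure D3:**
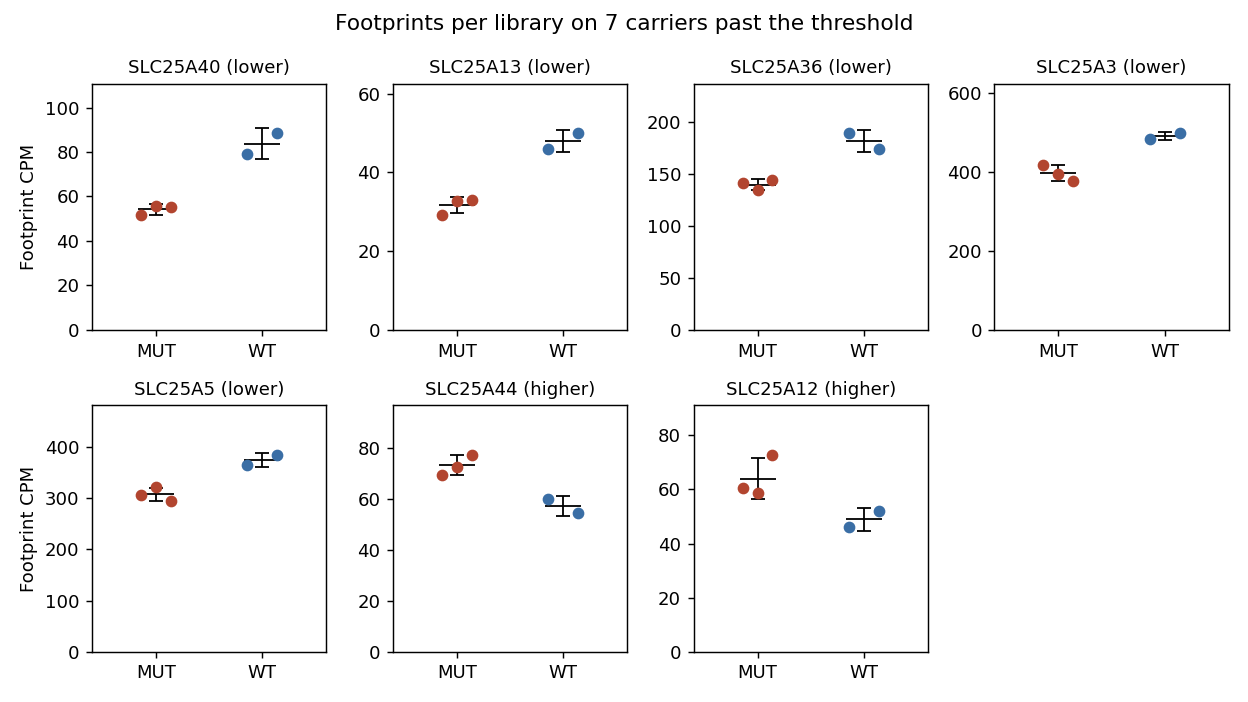
Footprint level (CPM, vertical axis starting at 0) in each library for 7 carriers past the threshold, MUT in red on the left and WT in blue on the right, with black bars for the mean ± SD of 3 MUT and 2 WT libraries. In each panel all MUT points lie on 1 side of both WT points, below them for SLC25A40, SLC25A13, SLC25A36, SLC25A3 and SLC25A5 and above them for SLC25A44 and SLC25A12.

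In the remaining roles no tested carrier passed. The oxoglutarate/malate carrier SLC25A11, the other carrier of the malate-aspartate shuttle, had 90.0, 80.6 and 85.7 CPM in MUT, against 72.9 and 81.1 CPM in WT, a log2 fold change of 0.14 (SE 0.115, edgeR adjusted p 0.408). The citrate carrier SLC25A1, which supplies cytosolic acetyl-CoA for lipid synthesis, had 98.0, 97.4 and 91.9 CPM in MUT, against 101 and 92.2 CPM in WT, a log2 fold change of -0.00616 (SE 0.108). The groups of both carriers overlapped. The dicarboxylate carrier SLC25A10 had a log2 fold change of 0.13, and SLC25A21 and SLC25A35, with means under 10 CPM, had 0.25 and 0.00402 with standard errors of 0.345 and 0.396. SLC25A30, related to the uncoupling proteins, had 108, 94.0 and 117 CPM in MUT, against 111 and 120 CPM in WT, and SLC25A14, of the same kind, had 16.5, 17.1 and 16.2 CPM in MUT, against 18.0 and 19.6 CPM in WT. Neither passed, at edgeR adjusted p of 0.431 and 0.562. SLC25A46, an outer-membrane protein of mitochondrial dynamics, had 110, 114 and 124 CPM in MUT, against 114 and 103 CPM in WT, a log2 fold change of 0.10 (SE 0.105, edgeR adjusted p 0.519). SLC25A43, without a settled substrate, was at a log2 fold change of -0.00345 (SE 0.131).

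The other 9 members were too sparse to test, with 2 to 43 counts over all 5 libraries and at most 13 in one. They were SLC25A2, SLC25A18, SLC25A27, SLC25A34, SLC25A41, SLC25A45, SLC25A47, SLC25A48 and SLC25A53, and 3 of them (SLC25A2, SLC25A18 and SLC25A47) had under 5 counts in all. SLC25A27 had 8, 7 and 7 counts in MUT, against 1 and 4 in WT, and SLC25A48 had 13, 6 and 9 counts in MUT, against 5 and 10 in WT. No fold is given for these genes at this depth.

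The fold changes of the carriers rose with the gene density around them, as did those of all tested genes. Over the 38 tested carriers, the log2 fold change correlated with the number of protein-coding genes centred within 500 kb at Pearson's r = 0.50 and Spearman's rho = 0.37. Over the 11976 tested genes with a position the values were 0.22 and 0.27. These are correlations across genes that share the same 5 libraries and are not independent replicates. With a limit of at least 20 such neighbours, chosen after the values were seen, 11 carriers lay in dense regions. Of these, 10 had positive log2 fold changes, for example 0.43 for SLC25A20 and 0.00402 for SLC25A35 (SE 0.396), neither of which passed. SLC25A39 was at -0.00264. The other 27 had a median log2 fold change of -0.13, and 9 of them were positive. Over all tested genes at any density, 50.3% were positive. That share was not computed for dense regions alone. All 5 lower carriers were among the 27 outside dense regions, along with SLC25A12. With the span of the gene itself the correlation over carriers was weak (r = 0.06). With a smooth trend of span and density removed, 1 carrier (SLC25A12) was higher and 3 (SLC25A5, SLC25A13 and SLC25A40) were lower.

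**Figure D4:**
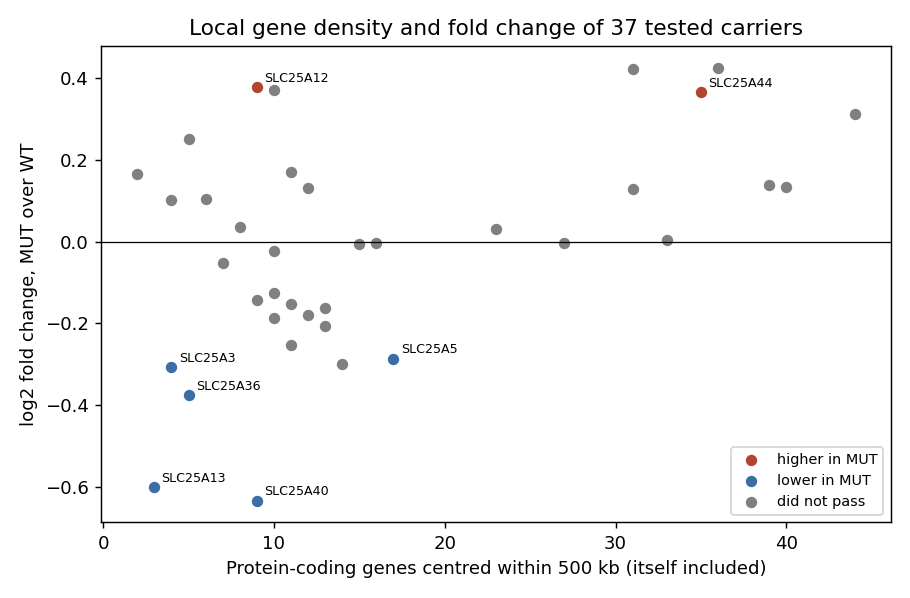
Log2 fold change of footprints (MUT over WT, vertical axis) of 37 tested carriers against the number of protein-coding genes centred within 500 kb of each gene (horizontal axis, RefSeq). Carriers higher in MUT are red, those lower in MUT blue and the rest grey, and 9 of the 10 drawn carriers with at least 20 neighbours lie above 0, with all 5 blue points among the others.

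Genes that work beside the carriers were read from 6 lists. Of their 76 tested members, 6 were higher and 20 lower in MUT, read against 10.0% and 12.9% of all genes. Of the 20 lower ones, 11 came from the list of ATP synthase, the enzyme that the ADP/ATP and phosphate carriers serve. That list has 18 genes, and the other 7 did not pass. The 11 include ATP5IF1, an inhibitor of the enzyme and not a subunit. The median log2 fold change of the list was -0.30. Of the carriers that serve the enzyme, SLC25A3 and SLC25A5 were at -0.31 and -0.29. SLC25A4 and SLC25A6, which did not pass, were at -0.21 and -0.14. A link between the list and these carriers was not tested. ATP5PD, of the peripheral stalk, had 240, 229 and 212 CPM in MUT, against 315 and 305 CPM in WT, a log2 fold change of -0.45 (SE 0.0927, edgeR adjusted p 0.00124). ATP5PO, of the same stalk, fell with a log2 fold change of -0.42 (edgeR adjusted p 0.00204). Leaving out WT replicate 2 left 3 lower genes of the ATP synthase list, and leaving out MUT replicate 1 left 7.

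On the import route of the carriers, 1 of 10 tested genes rose and 1 fell, where 10.0% of all tested genes were higher and 12.9% lower. TOMM20, a receptor of the outer membrane, had 348, 341 and 350 CPM in MUT, against 467 and 474 CPM in WT, a log2 fold change of -0.44 (edgeR adjusted p 0.00114). TIMM10, a small chaperone that escorts carriers through the intermembrane space, had 41.4, 49.8 and 52.3 CPM in MUT, against 33.5 and 36.9 CPM in WT, a log2 fold change of 0.44 (edgeR adjusted p 0.0411). TIMM10 passed in 7 of the 16 alternative fits and lost its call in 9, among them DESeq2 (adjusted p 0.144), limma-voom (0.0602), the replicate block (0.0608) and edgeR without WT replicate 1 (0.193), WT replicate 2 (0.126), MUT replicate 2 (0.082) or MUT replicate 3 (0.111). Of 18 other transporters of the mitochondrial membranes 3 rose and 4 fell, read against the same shares of all tested genes. SFXN3, of the family that carries serine into mitochondria, rose 1.54-fold (edgeR adjusted p 0.000879), and VDAC1, the main outer-membrane channel, fell with a log2 fold change of -0.46 (edgeR adjusted p 0.00159). Of these transporters 1 rose without WT replicate 1, and 1 fell without WT replicate 2.

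Among 14 tested enzymes of the malate-aspartate and citrate shuttles, IDH1 and MDH1 fell, with log2 fold changes of -0.61 and -0.30 (edgeR adjusted p 0.00106 and 0.041), and the other 12 did not pass. Of all tested genes, 10.0% were higher and 12.9% lower. IDH1 lost its call in 1 of 16 alternative fits, without WT replicate 2 (edgeR adjusted p 0.0573). MDH1 lost it in 7, among them DESeq2 (adjusted p 0.102) and edgeR without WT replicate 2 (0.452), MUT replicate 1 (0.162) or MUT replicate 3 (0.142). IDH1 makes NADPH from isocitrate in the cytosol, and MDH1 is the cytosolic malate dehydrogenase. Of 13 genes of heme and iron-sulfur cluster synthesis, 2 rose and 2 fell, read against the same shares of all tested genes. Among fits with both WT libraries, the higher genes dropped to 1 in DESeq2, with thinned libraries and with the trend of gene span and density removed. They also dropped to 1 without MUT replicate 2 or MUT replicate 3. The lower genes dropped to 1 in DESeq2, with that trend removed and without MUT replicate 1. ALAS1, which starts heme synthesis from glycine, had 148, 161 and 158 CPM in MUT, against 88.9 and 91.2 CPM in WT, 1.73-fold higher (edgeR adjusted p 9.99e-06), while CPOX, a later enzyme of the same pathway, fell with a log2 fold change of -0.46 (edgeR adjusted p 0.00106). The family's members that carry other symbols were represented by UCP2, MTCH1 and MTCH2, with log2 fold changes of -0.27, 0.07 and -0.14 that did not pass (edgeR adjusted p 0.22, 0.648 and 0.321).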

How the data were processed

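Ribosome-protected fragments of 25 to 35 nucleotides were isolated from the 80S fraction of MNase-digested extracts for 5 HCT116 libraries, from cells at 60 to 70% density, per the labels' protocols. The deposited values are raw counts per gene, not normalized by the authors. Build hg38, STAR 2.5.2b, cutadapt 4.6, DESeq2 1.42.0 and FastQC 0.12.1 appear in the list per the submitters' processing notes. The counting tool, counted region and strand setting were not given in the sources used. Of 17297 symbols, 17253, and all 47 carriers, matched RefSeq's table (GRCh38.p14).

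Counts were tested in R 4.3.3 with edgeR 4.0.16 (filterByExpr with minimum count 10 and total 15, TMM factors 0.959 to 1.03, quasi-likelihood F test over all 5 libraries, 3 residual degrees of freedom, Benjamini-Hochberg over all genes, threshold 0.05). CPM values use TMM-scaled library sizes. They are not divided by gene length, so levels of different genes are not compared. Standard errors come from the F statistic. No 2 libraries agreed within counting error (10 pairs, chi-square divided by its degrees of freedom 1.89 to 7.67). The test was checked on simulated data. Members, role groups and lists were chosen with earlier results of these data known. 1 carrier's result is not reported here, though the counts include it. Otherwise the genes named are all called carriers, the 8 with the highest mean CPM, the lowest p in each role and at most 2 per list; the paralogs and other members beside them were named after their values were seen. Alternatives were other scalings, DESeq2, limma-voom (limma 3.58.1), robust dispersion, other count filters, thinning, a replicate block, a trend of gene span and density, and leaving out each library.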

Additional observations from a re-analysis of the deposited data

How the results depend on the processing

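Of 16 alternative fits for each of the 8 called carriers, 93 of 128 kept call and direction, 35 lost the call and none reversed. The number of higher carriers (3) was 0 in DESeq2 (3 at an unadjusted p under 0.05) and with thinned libraries (3 unadjusted), 1 with the trend of gene span and density removed, and 0 to 2 when single libraries were left out (0 without WT replicate 2 or MUT replicate 1, 4 and 5 unadjusted in edgeR). The number of lower carriers (5) was 3 with library size only and with that trend removed, and 2 to 4 without single libraries, lowest without WT replicate 2. Over all genes, DESeq2 called 610 higher and 953 lower, against 1203 and 1544 in edgeR, and without single libraries the counts ran from 509 to 1089 higher and from 732 to 1339 lower, lowest without WT replicate 2. Upper-quartile scaling called 1558 higher and 1209 lower genes and library size only 1756 and 1040, so the split between directions depends on scaling. Of the 6 lists, 10 genes were higher with library size only. Without single libraries 2 to 6 were higher (2 without WT replicate 1) and 6 to 22 lower (6 without WT replicate 2).

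The family's median log2 fold change was 0.0733 with library size only, where the median of all genes was 0.0745, and -0.0665 to 0.0977 without single libraries. The replicate numbers, which the labels do not tie to a shared culture or day, gave a median of -0.0633 as a replicate block, with 3 higher and 6 lower carriers (SLC25A33 was lower at adjusted p 0.00525 and SLC25A22 higher at 0.0393, while SLC25A12 lost its call) and 1529 and 1909 genes overall. Deviations of same-numbered libraries correlated at 0.0784 and 0.151. Of the 7 uncalled carriers named by rule, 4 kept their sign in all fits. SLC25A39 turned positive with upper-quartile scaling (0.0423), library size only (0.0716), no filter (0.0078), a strict filter (0.0119), and without WT replicate 1, MUT replicate 1 or MUT replicate 2 (range over left-out libraries -0.0916 to 0.0763). SLC25A23 turned negative with the block (-0.0707), the trend removed (-0.0829) and without WT replicate 2 or MUT replicate 3 (range -0.228 to 0.304). SLC25A32 turned positive with library size only (0.0189), the trend removed (0.0933) and without WT replicate 2 (range -0.12 to 0.0259). For these values the cause was not tested. The difference in the family's share of raw counts was -0.00161 percentage points, 0.00549 without SLC25A4, SLC25A5 and SLC25A6, and -0.00746 to 0.00546 without single libraries. The share on SLC25A6 differed by -0.459 to 5.04 points without single libraries. Depth limits the sparse carriers: the tested members with means under 10 CPM had standard errors of 0.345 to 0.483.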
